A study of Mus musculus with 24 samples.

Results

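Rab30 had been removed in 2 ways in these mice, from hepatocytes alone or from the whole body, and the comparison described here is the difference between the effects of the 2 deletions on the RNA of the fasted liver. Its members are 16 of the 24 livers of the series, 4 in each of 4 of its 6 groups, chosen by genotype and not by any measured value. The liver effect is Rab30L-/- less ff;ff, the whole-body effect is Rab30KO less Rab30 Ctrl, and the difference is the liver effect less the whole-body effect. A positive difference therefore means that a gene stood higher in Rab30L-/- against ff;ff than it did in Rab30KO against Rab30 Ctrl.

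All 16 mice were males, 8 to 10 weeks old according to the methods, and had been fasted for 24 h before the liver was taken. Rab30L-/- mice carried Rab30 alleles with loxP sites around exon 4 and an albumin-promoter Cre, which deletes the exon in hepatocytes and leaves it in the other cells of the liver. The ff;ff mice carried floxed Rab30 and floxed Cpt2 without Cre, and are labelled as littermates of the double knockout (DKO). For liver and body weights the paper names Rab30 ff mice as the littermates of Rab30L-/-, and ff;ff as those of DKO. The litters of the sequenced Rab30L-/- mice are not listed separately. Rab30KO mice lacked exon 4 in every tissue after CRISPR-Cas9 editing, and Rab30 Ctrl mice were their wildtype littermates. Cre, floxed Cpt2 and, by the paper's pairing, litter thus differ along with the deletion in the liver comparison. Their shares in the liver effect, and in the difference, cannot be told apart from that of Rab30. In bulk RNA, fewer cells of a type and less RNA per cell cannot be told apart either.

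Rab GTPases are small switches that recruit trafficking proteins to membranes when bound to GTP and leave them after GTP is hydrolysed. Rab30 is one of the Rabs of the Golgi apparatus, through which hepatocytes send albumin, apolipoproteins, clotting factors and complement to the blood.

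Library totals ranged from 11801027 to 24497738 counts, and the 10 most counted genes took 15.8% to 21.3% of a library. edgeR's filter kept 14304 genes. Levels are given as CPM, counts relative to the TMM-scaled size of the library, in the order of replicates 1 to 4. A gene is called where the edgeR quasi-likelihood test gave an adjusted p under 0.05 and the fitted difference was at least 1.2-fold. Where it is said that a gene passed the unadjusted test, its p was under 0.05 before adjustment, again with at least 1.2-fold. The median standard error of a gene's log2 difference was 0.34, against 0.241 for either effect alone, so the difference is the least precise of these quantities. Each standard error (SE) was derived from the fitted log2 value and the F statistic of its test. It is unreliable where that log2 value is near 0. Hepatocyte markers summed to 93620 to 115800 CPM in Rab30L-/-, 113600 to 149000 in ff;ff, 112200 to 145800 in Rab30KO and 115000 to 145800 in Rab30 Ctrl, so that Rab30L-/- was lowest, and the part of this in the genes lower in Rab30L-/- was not tested. In contrast, 8 to 10 of 12 pancreas acinar markers were at 0 in all 4 libraries of a group.

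The deleted piece of Rab30 is printed because it shows why a whole-gene count is a weak check of these labels. Exon 4 lies at chr7:92829526-92829709 on the plus strand of GRCm38 and is exon 4 of 5 of transcript Rab30-201. It holds 184 bases, only 1.91% of the 9642 bases of gene length in the count table, so RNA without it still counts as Rab30. It reads, 5′ to 3′:
Rab30 exon 4: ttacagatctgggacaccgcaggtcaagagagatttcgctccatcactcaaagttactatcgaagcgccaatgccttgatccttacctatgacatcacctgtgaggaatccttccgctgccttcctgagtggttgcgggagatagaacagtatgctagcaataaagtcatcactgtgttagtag
Its length leaves a remainder of 1 after division by 3, so joining exon 3 to exon 5 shifts the reading frame. In the shifted frame a stop codon follows after 104 codons, against 203 codons in the full coding sequence. The stretch of exon 5 that would then be read, chr7:92835689-92835826, is printed with that stop codon in capitals:
Rab30 exon 5 to the new stop: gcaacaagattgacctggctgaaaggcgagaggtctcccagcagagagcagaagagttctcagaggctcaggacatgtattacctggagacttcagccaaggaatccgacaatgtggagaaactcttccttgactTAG

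Rab30 itself did not pass the adjusted test in either deletion or in the difference. The libraries labelled Rab30L-/- held 18.5, 9.98, 25 and 11.9 CPM of Rab30, and those labelled ff;ff held 25, 43.6, 43.2 and 29.9 CPM. The libraries labelled Rab30KO held 11.7, 5.22, 9.35 and 16.3 CPM, and those labelled Rab30 Ctrl 28.4, 10.6, 6.33 and 8.14 CPM. Rab30L-/- thus stood at or below ff;ff in every library, touching it at 25 CPM, while Rab30KO lay within the range of Rab30 Ctrl except for 1 lower library. The log2 liver effect on Rab30 was −1.11 (SE 0.45, adjusted p = 0.392), the whole-body effect −0.33 (SE 0.45, adjusted p = 0.99975) and the difference −0.78 (SE 0.64, adjusted p = 0.789). Without Rab30 Ctrl 1, the library with the highest Rab30 of its group, the log2 difference was −1.46 (SE 0.496, adjusted p = 0.281). Without Rab30KO 4, the highest of the Rab30KO libraries, it was −0.50. The DKO, whose hepatocytes lack the same exon, held 101 to 231 CPM of Rab30 when all 24 libraries were scaled together. Whole-gene counts of Rab30 are therefore no check of the exon 4 labels, and reads over exon 4 were not analysed here. The study also measured Rab30 by PCR and as protein, which these counts do not hold.

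Cpt2 is needed by mitochondria to oxidise long-chain fatty acids and is floxed in ff;ff. Its group mean was the lowest of these 4 groups in ff;ff, although the lowest single library was Rab30KO 1. Cpt2 stood at 258, 206, 213 and 165 CPM in Rab30L-/- and at 124, 136, 129 and 123 CPM in ff;ff. In the other pair it stood at 82.7, 168, 157 and 163 CPM in Rab30KO and at 182, 193, 150 and 180 CPM in Rab30 Ctrl. All 4 Rab30L-/- libraries lay above all 4 ff;ff libraries, and Rab30KO and Rab30 Ctrl overlapped. The log2 difference was 1.03 (SE 0.27) and did not pass the adjusted test (adjusted p = 0.291).

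The 2 deletions differed at 3 genes of 14304, or 0.021% of the genes tested, in edgeR's adjusted test. Mndal and Dab1 had the higher liver effect, and the pseudogene Gm4956 the lower. At the unadjusted test 1098 genes passed, 570 with a higher and 528 with a lower liver effect, which is 7.68% of the genes tested. In all 3 called genes the ff;ff libraries were the ones that stood apart from the other 12. All 3 stayed called when any single library was left out, and the number called was then 3 to 11, with 11 without Rab30L-/- 1, 8 without Rab30 Ctrl 1, 6 without Rab30L-/- 2, ff;ff 2 or ff;ff 3, and 5 without Rab30KO 3 or Rab30 Ctrl 4. The number depended on the method too, with 59 genes in the DESeq2 Wald test and 18 in edgeR without the low-count filter, and 0 in edgeR with at least 10 counts in every library, a filter that removes all 3.

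Mndal, a member of the interferon-inducible p200 family of DNA-binding proteins, lies at chr1:173849126-173942491 on the minus strand of GRCm38. It was at 4.52, 7.44, 4.97 and 4.57 CPM in Rab30L-/-, and at 0, 0, 0.135 and 0 CPM in ff;ff. It was at 21.4, 9.48, 22.6 and 7.59 CPM in Rab30KO, and at 7.99, 13.2, 8.37 and 9.95 CPM in Rab30 Ctrl. Mndal was thus near absent in ff;ff and present in the 12 other libraries, with Rab30KO and Rab30 Ctrl overlapping. Over the group, 344 counts stood against 2, a ratio of 159 (95% counting interval 43.7 to 1320). The fitted log2 difference was 6.41 (SE 0.78, adjusted p = 0.0014), of which the liver effect gave 7.03 (adjusted p = 4.11e-05) and the whole-body effect 0.62 (adjusted p = 0.99975). With so few counts in ff;ff a fitted fold depends on the prior count of the fit, and the log2 difference of Mndal was 8.80 without ff;ff 3, the library with its 2 counts, and 6.01 without ff;ff 2. Outside the contrast, Mndal was at 3.59 to 6.86 CPM in Cpt2L-/- and at 0 to 3 CPM in DKO, the line whose littermates the ff;ff mice were. In a fit over all 24 libraries the log2 difference of Mndal was 6.44 but no longer passed (adjusted p = 0.104).

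Dab1, an adaptor protein of the reelin signalling pathway, lies at chr4:103619359-104744844 and is the only called gene within 5 Mb of Cpt2. It was at 1.38, 0.713, 2.09 and 1.11 CPM in Rab30L-/-, and at 0, 0, 0.0675 and 0.0608 CPM in ff;ff. Rab30KO held 0.155, 1.03, 0.633 and 0.668 CPM of Dab1, and Rab30 Ctrl 0.766, 1.72, 2.41 and 2.07 CPM. Every ff;ff library lay below every other library, and only 1 Rab30KO library reached into the range of Rab30 Ctrl. The Rab30L-/- libraries held 96 counts against 2 in ff;ff, a ratio of 44.4 (95% counting interval 12 to 372). The fitted log2 difference was 6.51 (SE 0.93, adjusted p = 0.00765), with a liver effect of 5.05 (adjusted p = 0.00724) and a whole-body effect of −1.46 (adjusted p = 0.99975). Dab1 was also low in the groups bred with floxed Cpt2, at 0.126 to 0.562 CPM in Cpt2L-/- and 0.0469 to 0.194 CPM in DKO.

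Gm4956, a transcribed pseudogene at chr1:21285246-21298312, was highest in ff;ff. It was at 0.0729, 0.317, 0.591 and 0.221 CPM in Rab30L-/-, and at 10, 4.5, 8.1 and 5.84 CPM in ff;ff. It was at 0.698, 2.72, 1.41 and 1.03 CPM in Rab30KO, and at 0.219, 0.232, 0.482 and 0.129 CPM in Rab30 Ctrl. The groups of neither pair overlapped, and they were ordered in opposite ways, the knockout lower in the liver pair and higher in the whole-body pair. The log2 difference was −6.84 (SE 0.74, adjusted p = 0.00047), the liver effect −4.41 (adjusted p = 0.000554) and the whole-body effect 2.43 (adjusted p = 0.304). Gm4956 was not high in the other groups bred with floxed Cpt2, at 0.448 to 0.504 CPM in Cpt2L-/- and 0 to 1.17 CPM in DKO, against 4.61 to 10.4 CPM in ff;ff when all 24 libraries were scaled together. Its counts are uncertain, since reads of a pseudogene can be shared with its parent gene and the counting is not stated to be unique.

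**Figure D1:**
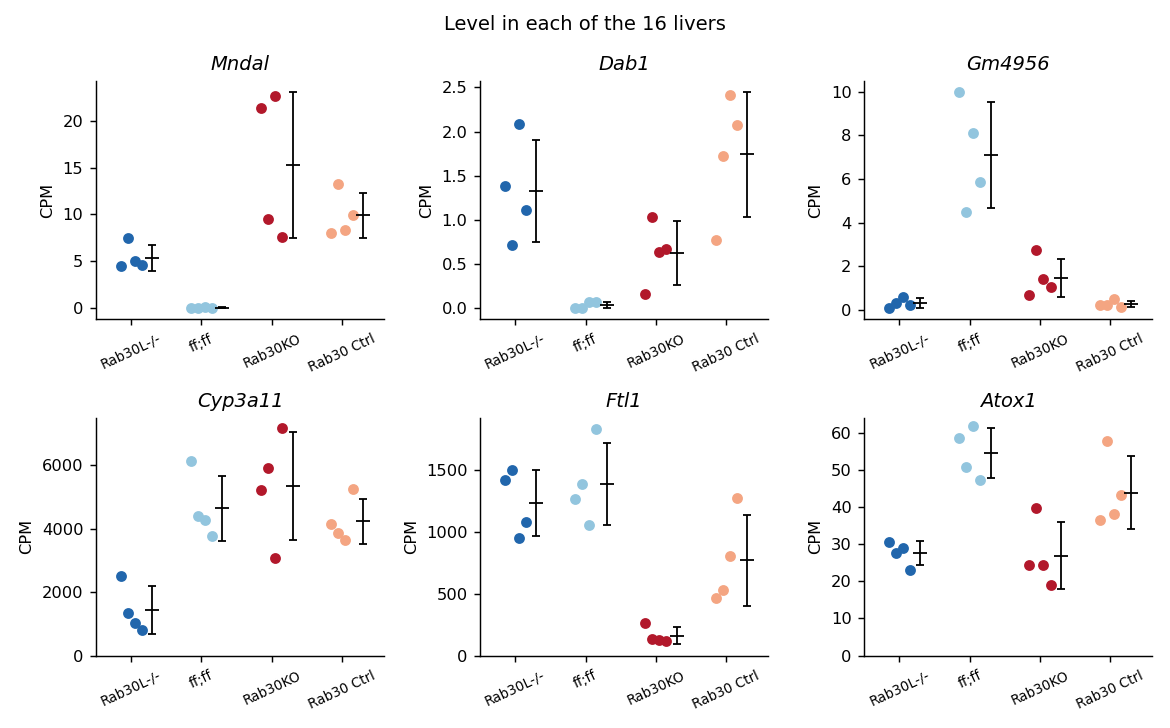
CPM of selected genes in each of the 16 livers (linear axes from 0), by group, with a point per library and the group mean ± SD (n = 4) beside it. For Mndal, Dab1 and Gm4956 the 4 ff;ff points lie outside the range of the other 12, for Cyp3a11 the Rab30L-/- points are lowest, for Ftl1 the Rab30KO points are lowest, and for Atox1 both knockouts lie low.

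The liver effect called 32 genes, 19 higher and 13 lower, or 0.224% of the genes tested, and the whole-body effect called 5, 2 higher and 3 lower, or 0.035%. At the unadjusted test the liver effect had 1499 genes, 798 higher and 701 lower (10.5%), and the whole-body effect 446, 206 higher and 240 lower (3.12%). The libraries of a pair did not overlap in 940 genes (6.57%) for Rab30L-/- and ff;ff, and in 196 genes (1.37%) for Rab30KO and Rab30 Ctrl. No gene was called in both effects, but 31 of the 32 liver genes and all 5 whole-body genes passed the unadjusted test of the difference. The counts depended on the method, with 227 liver and 15 whole-body genes in the DESeq2 Wald test, 319 and 6 in limma-voom, 94 and 9 in edgeR with all 24 libraries, and 64 and 3 in edgeR with the 8 libraries of each pair alone. Leaving out single livers moved both counts. The liver effect called 12 genes without Rab30L-/- 4, 16 to 21 without Rab30L-/- 2 or 3, ff;ff 2, 3 or 4, Rab30KO 1 or Rab30 Ctrl 2, and up to 46 without Rab30L-/- 1. The whole-body effect called 0 genes in edgeR's test without Rab30KO 3, Rab30KO 4 or Rab30 Ctrl 3, 1 without Rab30KO 2, 2 without Rab30KO 1 or ff;ff 2, and 3 without ff;ff 1. Since the genes past the unadjusted test of the difference were here chosen by an effect that is a term of the difference, that count is a description.

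Which group stood apart was then counted, a description that was chosen after the values were seen. A group stood apart where all 4 of its libraries lay above, or all below, the other 12. Among the 32 genes of the liver effect ff;ff stood apart at 15 (46.9%), 11 times below and 4 times above. Rab30L-/- stood apart at 8 of them (25%), 6 times below and 2 above, and the other 9 had no group apart. Over all genes tested ff;ff stood apart at 0.923% and Rab30L-/- at 0.678%. At more of the called genes, then, the control livers were the group away from the other 12 than the knockout livers were, and no test was made of that difference.

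The 8 genes at which Rab30L-/- stood apart were Cyp3a11, Tsc22d3, Gstk1, Abcc4, Gm14305 and Fam209 below the other groups, and Col15a1 and Gm15611 above them. Cyp3a11, the main drug-metabolising cytochrome P450 of mouse liver and a target of the receptors PXR and CAR, was at 2520, 1350, 1040 and 817 CPM in Rab30L-/-, and at 6130, 4420, 4290 and 3770 CPM in ff;ff. It was at 5220, 5910, 3090 and 7180 CPM in Rab30KO, and at 4150, 3860, 3660 and 5270 CPM in Rab30 Ctrl. Cyp3a11 fell in Rab30L-/- (log2 −1.70, SE 0.31, adjusted p = 0.0304), whereas its log2 whole-body effect was 0.34 (SE 0.30) and the 4 Rab30KO libraries overlapped Rab30 Ctrl. The log2 difference of Cyp3a11 was −2.04 (SE 0.43) and missed the adjusted threshold (adjusted p = 0.122), but it passed without Rab30L-/- 1, the highest library of its group (−2.46, adjusted p = 0.0119).

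Abcc4, a transporter that exports bile acids and drug conjugates across the basolateral membrane, was at 0.801, 1.82, 1.62 and 0.589 CPM in Rab30L-/- and at 3.12, 3.75, 4.39 and 3.53 CPM in ff;ff. It was at 3.72, 3.6, 5.2 and 4.86 CPM in Rab30KO and at 3.5, 4.68, 4.46 and 3.23 CPM in Rab30 Ctrl. Rab30L-/- was the low group, and the other 3 groups overlapped. Abcc4 fell in Rab30L-/- (log2 −1.59, adjusted p = 0.04), and its log2 difference was −1.73 (SE 0.42, adjusted p = 0.248).

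Tsc22d3, which encodes the glucocorticoid-induced leucine zipper protein, was at 123, 91.1, 107 and 81.8 CPM in Rab30L-/- and at 207, 205, 254 and 181 CPM in ff;ff. It was at 167, 201, 162 and 225 CPM in Rab30KO and at 236, 199, 135 and 134 CPM in Rab30 Ctrl. Every Rab30L-/- library lay below the 12 others. Tsc22d3 fell in Rab30L-/- (log2 −1.07, adjusted p = 0.0301), and the log2 difference was −1.17 (SE 0.27, adjusted p = 0.192). Gstk1, a glutathione transferase of mitochondria and peroxisomes, was at 76, 87.9, 99.9 and 77.7 CPM in Rab30L-/- and between 116 and 233 CPM in the other 12 libraries. Gstk1 fell in Rab30L-/- (log2 −1.11, adjusted p = 0.0491), and its log2 difference was −1.29 (SE 0.31, adjusted p = 0.242). Col15a1, a collagen of basement membranes, was one of the 2 genes at which Rab30L-/- stood above. It was at 8.09, 9.1, 8 and 8.55 CPM in Rab30L-/-, at 1.28 to 2.49 CPM in ff;ff, and at 1.92 to 7.29 CPM in the other 8 libraries, and it rose by 2.10 on the log2 scale (adjusted p = 0.0387).

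Atp1b1, the beta subunit of the sodium pump, was one of the 4 genes at which ff;ff stood above. It was at 74.8, 73, 95.5 and 68.7 CPM in Rab30L-/- and at 337, 232, 479 and 246 CPM in ff;ff. It was at 63.5, 74.6, 106 and 102 CPM in Rab30KO and at 97.1, 80.4, 143 and 117 CPM in Rab30 Ctrl. The Rab30L-/- libraries lay within the range of the whole-body pair, and ff;ff alone was high. Atp1b1 fell in Rab30L-/- (log2 −2.05, adjusted p = 0.000554), with a log2 whole-body effect of −0.34 (SE 0.23) and a difference of −1.71 (SE 0.33, adjusted p = 0.108).

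Rarres1, a retinoic acid responsive membrane protein, showed the same order in reverse. It was at 67.5, 46.6, 10 and 43.5 CPM in Rab30L-/- and at 3.54, 3.81, 1.42 and 1.76 CPM in ff;ff, while the 8 libraries of the other pair held 17.7 to 53.7 CPM. Rarres1 rose in Rab30L-/- (log2 3.99, adjusted p = 0.00724), and its difference was 3.75 (SE 0.69, adjusted p = 0.108). Dusp12, a dual-specificity phosphatase, was at 7.5, 9.18, 10.8 and 8.4 CPM in Rab30L-/-, at 2.28, 2.37, 2.9 and 3.29 CPM in ff;ff and at 4.42 to 9.84 CPM in the other 8 libraries. Dusp12 rose in Rab30L-/- (log2 1.73, adjusted p = 0.00594), and its whole-body effect was 0.00 (SE 0.24).

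At each of the 5 genes called in the whole-body effect it was Rab30KO that stood apart from the other 12 libraries. Ftl1, the light chain of the iron store ferritin, was at 263, 136, 131 and 116 CPM in Rab30KO and at 466, 534, 805 and 1280 CPM in Rab30 Ctrl. It was at 1420, 1500, 950 and 1080 CPM in Rab30L-/- and at 1270, 1390, 1060 and 1840 CPM in ff;ff. Ftl1 fell in Rab30KO (log2 −2.26, SE 0.32, adjusted p = 0.0164), while its liver effect was −0.17 (SE 0.31) with overlapping groups. The log2 difference was 2.09 (SE 0.44, adjusted p = 0.122).

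Its pseudogene Ftl1-ps1 was at 2.09, 1.84, 0.844 and 3.1 CPM in Rab30KO and at 4.49, 10.5, 9.1 and 14.6 CPM in Rab30 Ctrl, and fell by 2.28 on the log2 scale (adjusted p = 0.0306). Reads of Ftl1 and Ftl1-ps1 may be shared, so the pair is not 2 independent results. The antisense transcript 0610005C13Rik was at 80.8, 93.7, 71.9 and 56.5 CPM in Rab30KO and at 117, 142, 219 and 233 CPM in Rab30 Ctrl, and fell by 1.23 (adjusted p = 0.0332). Strand was not stated to be used in counting, so its reads cannot be told from those of genes it overlaps.

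Eif3j2, a subunit of the translation initiation factor eIF3, was higher in Rab30KO than in every other library. It was at 11.6, 14.9, 13.6 and 21.4 CPM in Rab30KO, at 4.16, 1.85, 3.07 and 3.88 CPM in Rab30 Ctrl and at 1.86 to 4.62 CPM in the 8 livers of the other pair. Eif3j2 rose by 2.25 on the log2 scale (adjusted p = 0.0164), and its difference was −1.99 (SE 0.46, adjusted p = 0.192). The pseudogene Gm3650 was at 3.1, 2.2, 1.41 and 1.58 CPM in Rab30KO and at 0 to 0.0646 CPM in Rab30 Ctrl, which is 116 counts against 3 and a ratio of 48.6 (95% counting interval 16.2 to 239). Gm3650 lies beside Eif3j2 on chromosome 18, on the opposite strand, and the counting is not stated to use strand or unique reads, so the pair is uncertain as 2 separate calls.

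The 2 effects showed little relation to each other across genes. Over the 14304 genes Pearson's r between the log2 liver effect and the log2 whole-body effect was 0.011 and Spearman's rho −0.024, and 6576 genes (46%) had the same sign. The 2 comparisons share no library, and the genes of a liver are not independent replicates, so these are descriptions with no p. Among the 12476 protein-coding genes r was 0.083, and among the 8949 genes with a mean of at least 100 counts r was −0.009 and rho −0.102, with 43.5% of the same sign. Of the 1499 genes past the unadjusted liver test 47% had the same sign in the whole-body effect, of the 446 past the whole-body test 44.4% did, and of the 32 called in the liver 16 did. Leaving out each of the 16 libraries in turn gave r from −0.076 to 0.091.

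**Figure D2:**
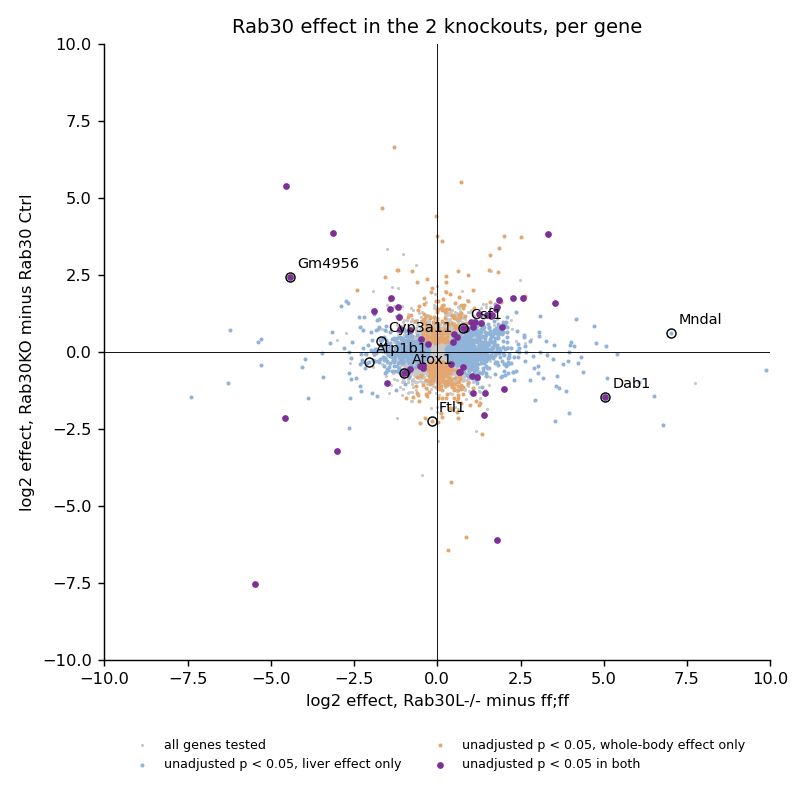
Log2 whole-body effect (Rab30KO less Rab30 Ctrl) against log2 liver effect (Rab30L-/- less ff;ff), a point per gene for the 14304 genes tested, with genes past the unadjusted test of 1 or both effects in colour and 8 genes of the text ringed. The cloud shows no slope (r = 0.011), and the 55 genes past both tests fall on every side, 31 on the same side of 0 for both effects and 24 on opposite sides.

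In both effects 55 genes passed the unadjusted test. They are 3.67% of the liver genes, where 3.12% of all genes passed the whole-body test, and 12.3% of the whole-body genes, where 10.5% of all genes passed the liver test, so both shares were near the background. They were 31 with the same sign, 21 higher and 10 lower, and 24 with opposite signs, 12 each way. Leaving out Rab30 Ctrl 1 raised the 55 to 136, leaving out Rab30KO 2 to 110, Rab30KO 4 to 98 and Rab30 Ctrl 3 to 90. Their number was therefore set in part by single livers of the whole-body pair.

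The mean of the 2 effects was tested too. It can pass from the liver effect alone, so a call does not show a change in both deletions. It called 5 genes, 3 higher and 2 lower, which is again 0.035% of the genes tested, and 898 passed the unadjusted test, 571 higher and 327 lower (6.28%). The 5 were Mndal, Tcp11l1, Ifi204, Atp1b1 and Atox1, and all 5 were also called in the liver effect. The number called was 3 without Rab30L-/- 4, ff;ff 2, ff;ff 3 or Rab30 Ctrl 2, and 8 without Rab30KO 2. It was 55 in the DESeq2 Wald test, 12 in limma-voom, and 10 in edgeR with all 24 libraries or without the low-count filter.

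Atox1, a chaperone that hands copper to the ATPases of the Golgi, had similar effects in both deletions. It was at 30.5, 27.6, 28.9 and 23 CPM in Rab30L-/- and at 58.5, 50.8, 61.8 and 47.3 CPM in ff;ff. It was at 24.3, 39.8, 24.4 and 19.1 CPM in Rab30KO and at 36.5, 57.8, 38 and 43.2 CPM in Rab30 Ctrl. The liver pair did not overlap, and in the whole-body pair 1 knockout library, replicate 2, lay above the lowest controls. Atox1 fell in the mean of both (log2 −0.85, SE 0.14, adjusted p = 0.0343), from −0.99 in the liver (adjusted p = 0.0493) and −0.71 in the whole body (adjusted p = 0.99975). The log2 difference was −0.28 (SE 0.28, adjusted p = 0.826). Atox1 lies at chr11:55446641-55461239. Between 50 and 60 Mb there, 17.2% of genes passed the unadjusted liver test and 12.1% the whole-body test. Between 40 and 50 Mb 30.4% and 13% did, beside 10.5% and 3.12% of all genes. Ifi47, Tgtp2 and Guk1, which also passed both tests with the same sign, lie in these windows. The part of position in these effects was not tested.

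Tcp11l1, whose role in the liver is not well described, was at 8.45, 6.57, 6.5 and 14.1 CPM in Rab30L-/- and at 3.63, 2.37, 1.42 and 1.83 CPM in ff;ff. It was at 7.99, 6.25, 8.3 and 8.01 CPM in Rab30KO and at 3.5, 4.54, 4.64 and 4.98 CPM in Rab30 Ctrl. Neither pair overlapped, and both knockouts reached a similar level from different controls. Tcp11l1 rose in the mean (log2 1.37, SE 0.20, adjusted p = 0.0133), with 1.95 in the liver (adjusted p = 0.00724), 0.79 in the whole body (SE 0.28) and a difference of 1.16 (SE 0.40, adjusted p = 0.523). Ifi204, another p200 family gene, was at 4.74, 7.68, 5.2 and 4.35 CPM in Rab30L-/-, at 1.18, 1.27, 1.01 and 1.58 CPM in ff;ff, at 15.1, 7.93, 21.4 and 7.71 CPM in Rab30KO and at 8.27, 8.76, 10.6 and 9.95 CPM in Rab30 Ctrl. Its call in the mean (log2 1.29, adjusted p = 0.0343) came from the liver pair, since Rab30KO lay on both sides of Rab30 Ctrl.

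Csf1, the growth factor of macrophages, passed the unadjusted test in both effects at nearly the same size. It was at 5.83, 10.7, 10.7 and 8.77 CPM in Rab30L-/- and at 4.98, 5.19, 4.86 and 5.96 CPM in ff;ff. It was at 12.6, 10.2, 11 and 8.8 CPM in Rab30KO and at 5.09, 6.68, 5.84 and 7.04 CPM in Rab30 Ctrl. All 4 Rab30KO libraries lay above Rab30 Ctrl, and in the liver pair only Rab30L-/- 1 reached into the range of ff;ff. The log2 effects on Csf1 were 0.78 (SE 0.20) and 0.79 (SE 0.20), and their difference was −0.01 (SE 0.29), but the mean effect narrowly missed the adjusted threshold (0.78, adjusted p = 0.0506). AA986860, a gene without a known function, was lower in both knockouts at the unadjusted test, with log2 effects of −0.91 and −0.66. Ifi47, an interferon-induced GTPase, was higher in both, by 1.76 in the liver and 1.39 in the whole body. It stood at 94.3 and 78 CPM in Rab30KO 1 and 3 but at 15.6 and 24.7 CPM in Rab30KO 2 and 4, against 16.8 to 29.5 CPM in Rab30 Ctrl.

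Among the genes with opposite signs was Efna1, a membrane-bound ligand of Eph receptors. It was at 23, 39.1, 26.6 and 28.4 CPM in Rab30L-/- and at 16.4, 20.1, 14.6 and 17.3 CPM in ff;ff. It was at 18.1, 18.7, 15.4 and 20.5 CPM in Rab30KO and at 19.8, 25.1, 29.5 and 27.1 CPM in Rab30 Ctrl. Rab30L-/- lay wholly above its control, and 3 of 4 Rab30KO libraries lay below theirs. The log2 effects were 0.78 (SE 0.17) and −0.48 (SE 0.17), and the difference of 1.26 (SE 0.24) missed the adjusted threshold (adjusted p = 0.108). It passed without Rab30L-/- 1 (adjusted p = 0.0495) or without Rab30 Ctrl 1 (adjusted p = 0.0485).

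Slc25a51, the mitochondrial carrier of NAD+, was at 148, 148, 186 and 174 CPM in Rab30L-/- and at 193, 211, 323 and 204 CPM in ff;ff, against 135, 137, 152 and 135 CPM in Rab30KO and at 111, 116, 91.5 and 104 CPM in Rab30 Ctrl. Neither pair overlapped, and the log2 difference was −0.91 (SE 0.22, adjusted p = 0.248). Zfp579, a zinc finger gene, had a difference of 1.33 (SE 0.37, adjusted p = 0.355). Cyp4a12b, a male-biased fatty acid hydroxylase, had a difference of −2.63 (SE 0.65, adjusted p = 0.274), with 70.4, 36.6, 41.9 and 41.2 CPM in Rab30L-/- and 157, 99.4, 122 and 52.4 CPM in ff;ff. It was at 106, 53.2, 81.2 and 41.3 CPM in Rab30KO and at 42, 8.16, 33.9 and 19.1 CPM in Rab30 Ctrl. Both pairs overlapped, with a log2 liver effect of −1.18 (SE 0.45) and a whole-body effect of 1.45 (SE 0.46). Obp2a, an odorant-binding lipocalin, was at 1.17, 0.475, 0.434 and 0.516 CPM in Rab30L-/- and at 6.66, 1.73, 5.6 and 8.64 CPM in ff;ff, which did not overlap. It was at 11.6, 0.808, 0.352 and 0.0607 CPM in Rab30KO and at 0, 0.232, 0.12 and 0.517 CPM in Rab30 Ctrl, which overlapped, with Rab30KO 1 far above the others. The log2 liver effect on Obp2a was −3.13 (SE 1.12, adjusted p = 0.325), and the log2 difference of −6.99 became −4.01 without Rab30KO 1.

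The genes induced by interferon were the only pathway list with a gene called in the difference. Interferons bind receptors on nearly all cells, and they act on target genes through promoter elements, type I interferon mainly through the ISRE and interferon gamma mainly through the GAS. The list held 42 genes, all tested. In the liver effect 18 of the 42 passed the unadjusted test as higher and 0 as lower, with 2 called, Mndal and Ifi204, where 10.5% of all genes passed in either direction. In the whole-body effect 8 were higher and 0 lower, with 0 called, beside 3.12% of all genes. In the difference 8 were higher, 1 of them called, and 0 were lower, beside 7.68% of all genes. The median log2 effect over the list was 0.85 in the liver and 0.38 in the whole body, against 0 and 0.01 over all genes, and the median difference was 0.35. On chromosomes other than 1, which holds Mndal and Ifi204, the list had 37 genes, of which 15 passed in the liver, 8 in the whole body and 5 in the difference.

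Ifi47 and Psmb9 were the 2 members that passed in both effects, 2 of the 18 and 2 of the 8. Isg15, a ubiquitin-like protein joined to targets after type I interferon, was at 4.37, 5.46, 10.9 and 6.48 CPM in Rab30L-/- and at 1.27, 2.14, 0.945 and 3.77 CPM in ff;ff. It was at 2.95, 1.69, 3.3 and 2.19 CPM in Rab30KO and at 2.08, 4.82, 3.86 and 2.33 CPM in Rab30 Ctrl. The liver pair did not overlap, and the whole-body pair did. The log2 liver effect on Isg15 was 1.74 (SE 0.41, adjusted p = 0.0842), the whole-body effect −0.38 (SE 0.41) and the difference 2.11 (SE 0.58, adjusted p = 0.352). Ifit3b and Ifit3, which belong to a family that binds viral RNA or blocks its translation, had liver effects of 1.85 (SE 0.49) and 1.56 (SE 0.47) and whole-body effects of −0.03 (SE 0.45) and 0.05 (SE 0.45). Ifi27l2a, a small membrane protein, had 2.04 (SE 0.63) in the liver and −0.74 (SE 0.58) in the whole body.

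In the whole-body effect the members past the test were Ifi47, Tgtp1, Igtp, Iigp1, Irgm1, Gbp3, Psmb9 and Tap1, which are immunity GTPases, a proteasome subunit and a peptide transporter of antigen presentation. Tgtp1 was at 150, 2.87, 280 and 3.4 CPM in Rab30KO and at 2.9, 4.5, 22.2 and 2.33 CPM in Rab30 Ctrl. It was at 3.13, 17.4, 10.1 and 9.14 CPM in Rab30L-/- and at 4.22, 2.83, 1.08 and 1.89 CPM in ff;ff. Igtp was at 242, 30.1, 368 and 33.8 CPM in Rab30KO and at 26.1, 46, 73.4 and 22.7 CPM in Rab30 Ctrl. The 2 libraries Rab30KO 1 and 3 were high for both GTPases, and Rab30KO 2 and 4 lay within the controls. Without Rab30KO 3 the count of 8 fell to 1, without Rab30KO 1 to 3, and without both to 0, whereas it rose to 15 without Rab30KO 2 and also without Rab30KO 4. Removing Rab30 Ctrl 3 raised it to 13, and removing Rab30 Ctrl 1, 2 or 4 lowered it to 5, 5 and 4. In the liver effect the count of 18 stayed between 12 and 21 as each library was left out.

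By library, the median log2 CPM over the 42 genes was 2.54, 3.71, 3.44 and 3.28 in Rab30L-/- and 2.78, 2.03, 1.17 and 2.05 in ff;ff. It was 4.05, 2.47, 4.4 and 2.92 in Rab30KO and 3, 2.84, 3.9 and 2.56 in Rab30 Ctrl. By this median the range of ff;ff reached lowest, and Rab30L-/- overlapped Rab30 Ctrl. The summed CPM of the 42 genes did not show this order, at 3534 to 4497 in ff;ff, 3144 to 5542 in Rab30L-/-, 3303 to 8946 in Rab30KO and 3149 to 4690 in Rab30 Ctrl. Macrophage markers, 14 genes, summed to 859.6, 359.1, 1786 and 502.7 CPM in Rab30KO 1 to 4, so that the high libraries were again replicates 1 and 3. They summed to 468.3 to 785.9 CPM in Rab30 Ctrl, 295.4 to 834.2 in Rab30L-/- and 238.3 to 430.3 in ff;ff, with 0 of the 14 at 0 in a whole group. B cell markers, 10 genes, summed to 9.18 to 17.65 CPM in Rab30L-/- and 3.443 to 7.762 CPM in ff;ff, which did not overlap. They summed to 11.83 to 40.99 CPM in Rab30KO, and to 11.22 to 24.53 CPM in Rab30 Ctrl. Markers of T and NK cells, 12 genes, summed to 9.62, 3.233, 17.86 and 5.768 CPM in Rab30KO 1 to 4, with replicates 1 and 3 highest, and to 5.31 to 7.976 CPM in Rab30 Ctrl. The part of these cell types in the interferon result was not tested.

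**Figure D3:**
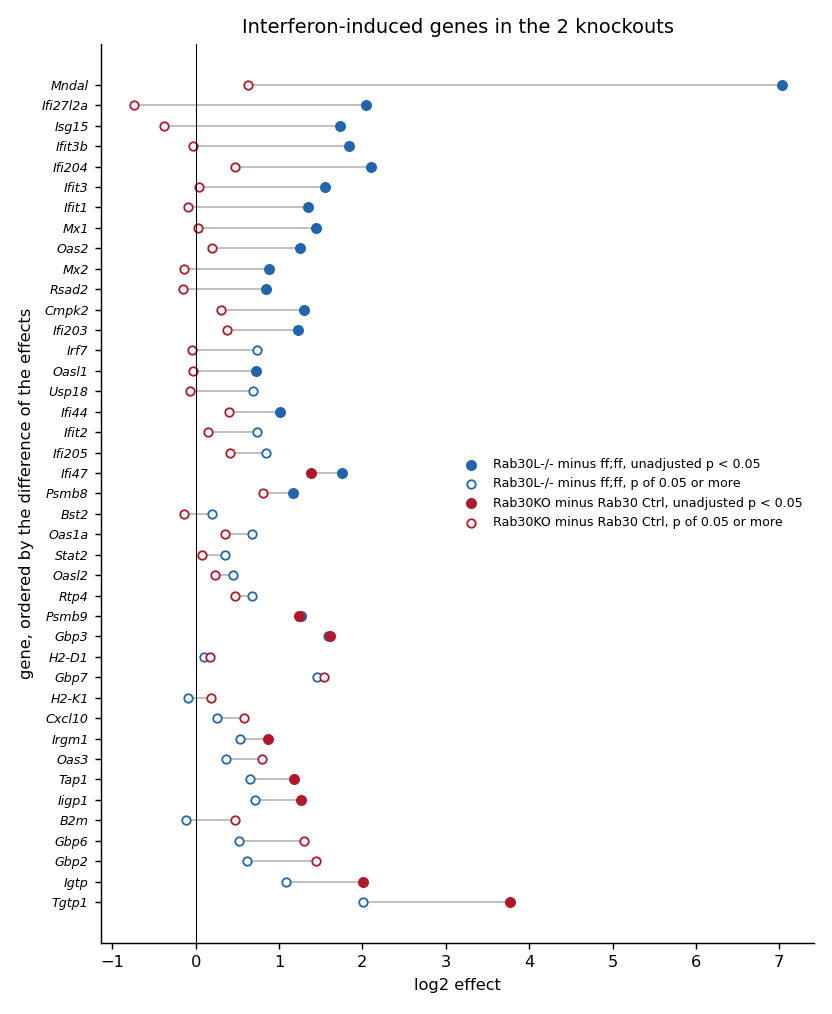
Log2 liver effect and log2 whole-body effect of 41 of the 42 interferon-induced genes. Over all 42, 40 lie above 0 in the liver effect and 32 in the whole-body effect, and the immunity GTPases Tgtp1 and Igtp are higher in the whole-body effect while Isg15 and Ifit3b are higher in the liver effect.

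Promoters of the 21 genes that were higher in both effects at the unadjusted test were read for the 2 interferon elements, a step chosen after the genes were seen. RefSeq promoters of GRCm38.p6 were matched for 17 of the 21, and the 250 bases before each start were searched on both strands. The core of the ISRE, TTTC followed after any 2 bases by TTTC, was present in 5 of the 17 (29.4%), against 351 of the 10372 tested genes with a promoter (3.38%). TTCNNNGAA, the GAS, was present in 1 of 17 (5.88%), against 7.39% of the tested genes. Of 14 matched genes with opposite effects, 0 held either motif, and of 7 lower in both, 1 held the ISRE core. A match is a description of letters and not a bound site. The starts are those of RefSeq and can differ from the gene models counted: the Tdrd7 window lies inside the counted gene, and the fifth match, that of the pseudogene Gm1966, lies outside the counted gene and upstream of it. At 4 of the 5 genes, all but Tdrd7, Rab30KO 1 and 3 were the high libraries of Rab30KO, and neither Rab30KO 2 nor Rab30KO 4 lay above the highest Rab30 Ctrl library. The 55 genes past both tests, which hold the 21, became 38 to 136 when 1 library was left out. The windows of 4 of the 5 promoters are printed with the match in capitals, on the strand of the gene:
Tdrd7, chr4:45972086-45972135: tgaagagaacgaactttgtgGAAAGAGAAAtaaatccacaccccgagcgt
Ifi207, chr1:173741821-173741870: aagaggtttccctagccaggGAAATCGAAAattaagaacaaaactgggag
Tgtp2, chr11:49064253-49064302: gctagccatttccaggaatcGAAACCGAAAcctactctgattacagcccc
Slamf8, chr1:172590569-172590603: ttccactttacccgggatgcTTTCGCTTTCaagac
Tgtp2, a close paralog of Tgtp1 whose reads may be shared with it, also holds the GAS match, which lies beside the ISRE core in the printed window. Tgtp2 was at 72.6, 1.18, 147 and 1.4 CPM in Rab30KO and at 1.53, 4.17, 8.13 and 1.87 CPM in Rab30 Ctrl. Slamf8 was at 3.1, 1.18, 6.05 and 0.304 CPM in Rab30KO, Ifi207 at 25.3, 11.8, 26.3 and 11.8 CPM and Gm1966 at 6.67, 1.4, 10.5 and 2.25 CPM. Tdrd7, a Tudor domain protein induced by interferon, was at 24.2, 25.7, 32.8 and 32.9 CPM in Rab30L-/- and at 27.8, 16.4, 16.7 and 15.9 CPM in ff;ff. It was at 32.7, 27, 27.6 and 22.8 CPM in Rab30KO and at 21.6, 17.5, 21 and 19.1 CPM in Rab30 Ctrl, where the groups did not overlap.

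No other pathway or cell list had a gene called in the difference. The lists were chosen with earlier results of these data known, and their counts are read beside the 7.68% of all genes that passed the unadjusted test of the difference. Of 44 Rab GTPases tested, 2 had a higher and 4 a lower liver effect at the unadjusted test, and the median difference was −0.10. Rab36, a Rab of the Golgi and late endosome, was at 14.4, 9.1, 14.1 and 13.6 CPM in Rab30L-/- and at 6.75, 6.87, 5.06 and 5.72 CPM in ff;ff, against 7.38 to 11.8 CPM in Rab30KO and at 4.76 to 12.9 CPM in Rab30 Ctrl. Its difference was 1.22 (SE 0.37, adjusted p = 0.451). Rab17, a Rab of epithelial polarity, was the other that was higher, at 0.84 (SE 0.28). Rab7 and Rab9 of the late endosome, Rab32 and Rab33b were the 4 lower, from −0.78 to −0.42. Of 60 genes of the Golgi and of transport from the endoplasmic reticulum, 0 had a higher and 1 a lower liver effect, Golga7, a partner of palmitoyltransferases, at −0.54 (SE 0.25, adjusted p = 0.639). The median effects over the Golgi list were 0.02 in the liver and 0.05 in the whole body.

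Among 41 Ppara targets of fasting 2 had a higher and 3 a lower liver effect than whole-body effect. In the liver effect itself 3 were higher and 8 lower, beside 10.5% of all genes, and 0 passed in the whole body. Cpt2, the gene floxed in ff;ff, is a member and was among the higher in both counts. Its difference was 1.03 (SE 0.27) and its liver effect 0.72 (SE 0.19). Pdk4, which blocks pyruvate entry into the citric acid cycle, had a liver effect of −2.16 (SE 0.43, adjusted p = 0.0515), a whole-body effect of −0.07 (SE 0.42) and a difference of −2.08 (SE 0.60, adjusted p = 0.414). Angptl4, an inhibitor of lipoprotein lipase, had a difference of −0.98 (SE 0.34). Of 24 apolipoproteins and lipoprotein assembly genes, 3 were higher and 1 lower. Apom, the carrier of sphingosine phosphate on lipoproteins, had a difference of 0.91 (SE 0.26, adjusted p = 0.40). Apoa4 was at 2090, 976, 4560 and 1490 CPM in Rab30L-/- and at 471, 1300, 1730 and 364 CPM in ff;ff, against 135, 258, 375 and 303 CPM in Rab30KO and at 493, 181, 745 and 271 CPM in Rab30 Ctrl. Both pairs overlapped, and the difference of Apoa4 was 1.90 (SE 0.84, adjusted p = 0.638).

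Lists of secreted liver proteins are read beside the 10.5% of all genes that passed the unadjusted liver test and the 3.12% that passed the whole-body test. Of 28 acute phase genes 9 were higher and 0 lower in the liver effect at the unadjusted test, 2 were higher and 1 lower in the whole-body effect, and 0 passed in the difference. Their median effect was 0.72 in the liver and 0.16 in the whole body. Hpx, the haem scavenger hemopexin, was at 6670, 14300, 4770 and 5150 CPM in Rab30L-/- and at 3780, 2190, 2840 and 6430 CPM in ff;ff, which overlapped. Its effects were 1.02 (SE 0.38) and 0.10 (SE 0.38), and their difference of 0.92 became 0.44 without Rab30L-/- 2. Saa2, an acute phase apolipoprotein, was at 251, 2380, 11.2 and 17.7 CPM in Rab30L-/-, so that the mean of that group rested on Rab30L-/- 2. In raw counts Saa2 held 3448, 30068, 284 and 240 in Rab30L-/- and 99, 40, 47 and 2311 in ff;ff, and the groups overlapped. The counts of these lists were not repeated without Rab30L-/- 2. Of 31 complement genes 9 were higher in the liver effect and 0 in the whole-body effect, and in the difference 2 were higher, Masp2, a protease that starts the lectin pathway, having 0.70 (SE 0.28, adjusted p = 0.604). Of 32 coagulation genes 8 were higher and 1 lower in the liver, 1 higher in the whole body, and 3 higher and 1 lower in the difference, where Serpinf2, the inhibitor of plasmin, had 0.67 (SE 0.23, adjusted p = 0.529).

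Among glucocorticoid-induced genes more were lower than higher in the liver effect. Of 21, 7 were lower and 2 higher in the liver effect, with Tsc22d3 called, beside 10.5% of all genes, 1 was higher and 0 lower in the whole body, beside 3.12%, and 5 were lower and 1 higher in the difference. The median difference was −0.48. Dusp1, a phosphatase of MAP kinases, was at 21.9, 20.8, 33.8 and 23.6 CPM in Rab30L-/- and at 28.3, 68.3, 88.3 and 46.4 CPM in ff;ff, against 25.3 to 45.4 CPM in the other 8. Its difference was −1.10 (SE 0.38, adjusted p = 0.516). Gadd45a, a stress-induced growth arrest gene, was the 1 higher, at 2.74 (SE 0.65, adjusted p = 0.206). Of 22 clock genes 5 were higher and 2 lower in the difference. Dbp, a PAR bZIP factor that cycles strongly in liver, was at 94.1, 91.5, 115 and 108 CPM in Rab30L-/- and at 26.8, 32.3, 37.5 and 57.7 CPM in ff;ff. It was at 51, 65.2, 44.6 and 33.1 CPM in Rab30KO and at 27.3, 54.6, 69.6 and 95.4 CPM in Rab30 Ctrl. The liver pair did not overlap and the other pair did, and the difference of Dbp was 1.75 (SE 0.44, adjusted p = 0.267), and it passed without Rab30 Ctrl 1 (adjusted p = 0.0485). Nr1d1, a repressor of the clock, had a difference of 1.32 (SE 0.41) and Cry1, another repressor, −0.72 (SE 0.33).

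Targets of CAR, PXR and AhR had 2 genes higher and 4 lower in the difference out of 29. Cyp2b10, the classic CAR target, had −3.81 (adjusted p = 0.482), but its ff;ff libraries spanned 6.39 to 102 CPM. Cyp1b1, an AhR target, was at 0.219, 0.713, 0.709 and 0.589 CPM in Rab30L-/- and at 1.02 to 2.46 CPM in the other 12 libraries, and its difference was −1.79 (SE 0.53, adjusted p = 0.415). In other lists the members with the smallest p of the difference were Bbc3, an inducer of apoptosis under p53 (difference 1.75, SE 0.49), Gdf15, a stress cytokine (2.28, SE 0.70), G6pc, the last enzyme of glucose output (−1.27, SE 0.50), Sc5d of cholesterol synthesis (0.92, SE 0.38) and Fads1, a fatty acid desaturase (0.50, SE 0.24), none of which passed the adjusted test. The remaining lists gave Vmp1 for autophagy (−0.91, SE 0.33), Idua for the lysosome (0.66, SE 0.33), Hspa1a for the unfolded protein response (−2.23, SE 1.01), Ccnb2 for the cell cycle (−1.78, SE 0.79), Slc1a2 for pericentral genes (−0.84, SE 0.37) and Tat for periportal genes (−0.85, SE 0.36). Without Rab30L-/- 3 the difference of Fads1 was 0.31, and without Rab30KO 4 that of Hspa1a was −1.36.

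Cell type markers were compared in the same way, beside the 10.5% of all genes past the liver test and the 3.12% past the whole-body test. Of 12 markers of liver sinusoidal endothelial cells, 5 were lower and 0 higher in the liver effect, and 2 were lower in the difference. Bmp2, which these cells release to hold iron uptake in check, was at 15.6, 15.1, 11.9 and 15.3 CPM in Rab30L-/- and at 19.8, 32.7, 22.9 and 27.4 CPM in ff;ff, with 25.4 to 42.3 CPM in the other 8 libraries. Its difference was −0.93 (SE 0.25, adjusted p = 0.329). The 12 markers summed to 369.1 to 406.7 CPM in Rab30L-/-, 392.9 to 588.1 in ff;ff, 621.9 to 695.8 in Rab30KO and 540.8 to 668.1 in Rab30 Ctrl, so that both groups of the liver pair lay largely below both of the whole-body pair. Of 10 neutrophil markers 4 passed the low-count filter, and these 4 were higher in the liver effect at the unadjusted test. S100a9 was at 0, 6.33, 1.73 and 0.589 CPM in Rab30L-/- and at 0 to 0.548 CPM in ff;ff, and its difference of 3.39 became 2.02 without Rab30L-/- 2. The 10 markers summed to 2.987, 26.44, 7.686 and 3.537 CPM in Rab30L-/- and to 1.62 to 3.164 CPM in ff;ff, so that the groups overlapped and Rab30L-/- 2 was highest. Of 9 B cell markers tested 4 were higher in the liver effect and 0 in the whole-body effect, and Ighm, the constant region of IgM, had a difference of 1.31 (SE 0.62, adjusted p = 0.648). Of 13 macrophage markers 0 passed in the difference.

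The positions of the genes were examined after their values had been seen. The share of genes past the unadjusted whole-body test was 7.96% on chromosome 7, which carries Rab30 (88 of 1105), and 2.71% on the other chromosomes, where it ranged from 0.887% to 4.35%. The share past the liver test was 14.6% on chromosome 1 (126 of 862) and 10.2% on the others, from 6.08% to 12.2%. On chromosome 7 itself 8.6% of the genes passed the liver test, which is below the 10.5% of all genes. The difference of these shares was not tested.

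**Figure D4:**
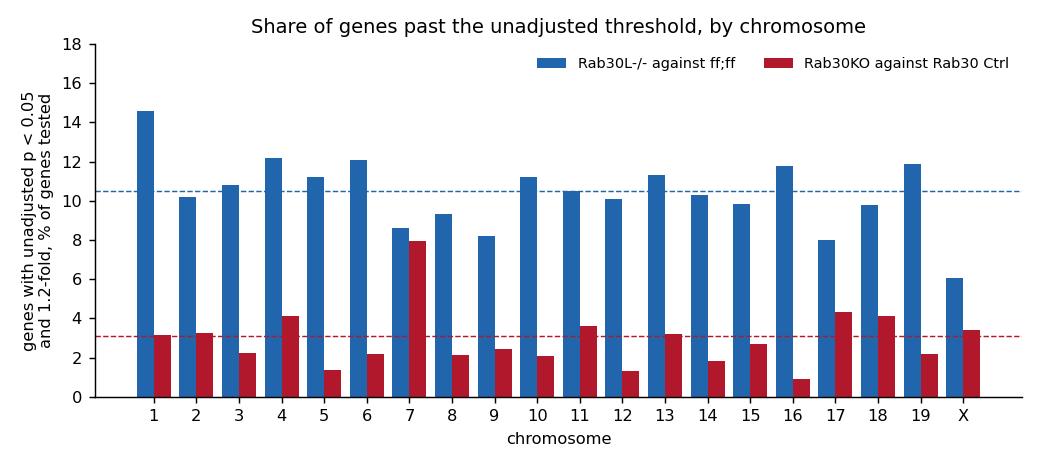
Share (%) of tested genes past the unadjusted test on each chromosome, for the liver and the whole-body effect. Chromosome 7 has the highest share in the whole-body effect (7.96%) and chromosome 1 in the liver effect (14.6%).

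On chromosome 7 the genes that passed were not limited to the neighbours of Rab30. Between 30 and 60 Mb, 32.7 to 62.7 Mb from Rab30, 46 of 225 genes passed the whole-body test (20.4%), 12 higher and 34 lower, against 18 (8%) in the liver and 35 (15.6%) in the difference. Within 5 Mb of Rab30, of 39 genes tested, 1 was higher and 2 lower in the whole body, where 3.12% of all genes passed, 2 higher and 1 lower in the liver, and 1 each way in the difference, where Aamdc had the smallest p (0.72, SE 0.30). Ftl1 and 0610005C13Rik lie in the stretch of 30 to 60 Mb. Irf3, a transcription factor that turns on interferon genes, lies there too, with 28.8, 37.5, 33.4 and 30.9 CPM in Rab30KO and at 33.1, 56.4, 42.5 and 55.9 CPM in Rab30 Ctrl and 47.2 to 68.5 CPM in the liver pair. Klk1b4, a kallikrein, was at 0 in all 4 Rab30KO libraries and at 0.276 to 1.82 CPM in the other 12, at least 13.2-fold lower than Rab30 Ctrl against a floor of 3 counts over the group. Leaving out each library in turn gave 32 genes in the stretch without Rab30 Ctrl 4, 60 without Rab30 Ctrl 1 and counts between these without the others. At some of these genes the controls split, with Rab30 Ctrl 1 and 2 nearer to Rab30KO than Rab30 Ctrl 3 and 4. Tead2, a transcription factor of the Hippo pathway, was at 10.1, 8.96, 11 and 7.35 CPM in Rab30KO and at 6.19, 7.33, 0.663 and 1.03 CPM in Rab30 Ctrl, and Slc6a16 was at 15.5, 13.1, 5 and 5.3 CPM in Rab30 Ctrl, against 18.5 to 36.6 CPM in Rab30KO. Ftl1 and 0610005C13Rik, whose values are given above, split in the same way.

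**Figure D5:**
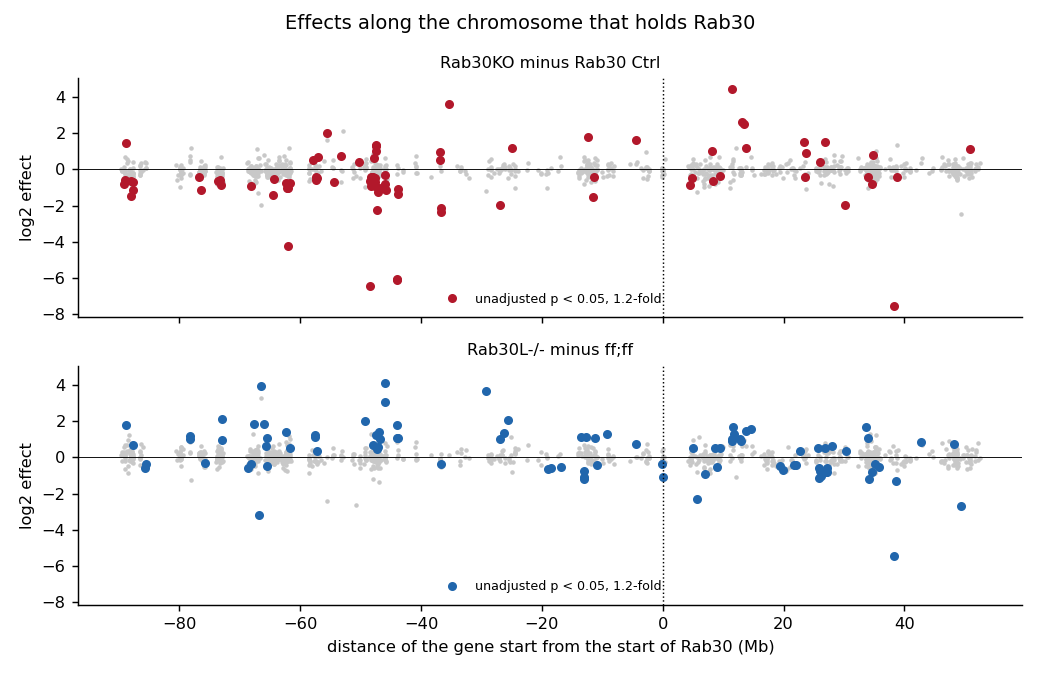
Log2 whole-body effect and log2 liver effect of chromosome 7 genes against distance (Mb) from the start of Rab30, with genes past the unadjusted test marked. In the whole-body effect 46 of the 225 genes between 32.7 and 62.7 Mb from Rab30 are marked, on the side of lower coordinates, and 3 of the 39 within 5 Mb of it.

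On chromosome 1, 28 of 95 genes between 170 and 180 Mb passed the liver test (29.5%), 25 of them higher, against 3 in the whole body (3.16%) and 14 in the difference. Among the 224 windows of 10 Mb with at least 20 genes the median liver share was 10%, and 2 smaller windows, on chromosomes 4 and 11, reached 30.4%. This stretch holds the p200 family genes beside Mndal and Ifi204. Ifi213 was at 0.729, 1.74, 0.867 and 1.11 CPM in Rab30L-/- and at 0, 0, 0 and 0.122 CPM in ff;ff, 69 counts against 2 and a ratio of 31.9 (95% counting interval 8.51 to 269). Ifi203 was at 5.68, 9.26, 5.68 and 6.04 CPM in Rab30L-/-, at 2.45, 3.06, 2.09 and 3.65 CPM in ff;ff and at 8.89 to 20.7 CPM in the other 8. Both were low in ff;ff, and reads may be shared among these paralogs. The number of genes in the stretch stayed between 22 and 33 as each library was left out.

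The highest share in the difference, among the same 224 windows, was between 60 and 70 Mb of chromosome 4, at 18 of 57 genes (31.6%), 8 higher and 10 lower, against a median of 6.94% over the windows. None was called. Most were major urinary protein genes and pseudogenes, near-identical copies whose reads cannot be assigned with certainty and whose levels differed widely within groups. Mup20, the pheromone darcin, was at 1780, 381, 316 and 820 CPM in Rab30L-/-, 3310, 1030, 1450 and 1330 CPM in ff;ff, 1870, 872, 882 and 310 CPM in Rab30KO and at 107, 194, 209 and 905 CPM in Rab30 Ctrl. Mup10 was at 1090 CPM in Rab30L-/- 3 and at 0.422 to 29 CPM in the other 15 libraries. Alad and Hdhd3, which are no Mup genes, were also in the window. Alad, the second enzyme of haem synthesis, was at 158, 170, 75.3 and 155 CPM in Rab30L-/-, 91.2, 109, 54.4 and 103 CPM in ff;ff, 96, 265, 93.1 and 221 CPM in Rab30KO and at 264, 285, 395 and 194 CPM in Rab30 Ctrl, where both pairs overlapped. Leaving out each library in turn gave 12 to 21 genes in this window.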

How the data were processed

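RNA of 24 fasted mouse livers was sequenced, and the 16 of Rab30L-/-, ff;ff, Rab30KO and Rab30 Ctrl were used. Groups were taken from the sample labels. The authors deposited raw read counts per gene for each library. The submitters' processing notes name HISAT2, DESeq2 and the builds GRCm38 and mm10, without versions, and the counting tool, annotation release and use of strand were not given in the sources used here. FPKM values and normalised counts deposited by the authors were not used, nor were their tables of log2 fold changes and p-values. The number of value columns that match no sample was 0.

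Counts were filtered with filterByExpr, scaled by TMM and fitted with the edgeR 4.0.16 quasi-likelihood test (R 4.3.3) in 1 model over the 16 libraries, with a mean per group and contrasts for each effect, their difference and their mean. P-values were adjusted by the Benjamini-Hochberg method over all 14304 genes. Fitted log2 effects and differences carry edgeR's default prior count. A prior count of 2 applies only to log2 CPM, used for spans within groups and for the medians of the interferon-induced genes. All 24 pairs of replicates within the 4 groups differed beyond counting noise (chi-square per degree of freedom 39.25 to 110.8), so each library counts as 1 replicate. The methods call the 4 libraries of a genotype biological replicates, so p-values measure the spread between mice of a group. Ratios with few counts carry exact 95% intervals, and both these and the floors of 3 counts cover counting error only. The scripts were tested on simulated data. Alternatives were DESeq2 1.42.0 (Wald test and size factors), limma 3.58.1 voom with quality weights, upper-quartile scaling, other filters, all 24 libraries, and leaving out each library.

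The genes named were Rab30 and Cpt2, and the called protein-coding genes of the difference and of the mean effect with a mean of at least 50 scaled counts in the highest group. Under the same limits to protein-coding genes and counts, 5 genes of the same sign and 5 of opposite signs were named. These had the smallest values of the larger p of both effects, so genes outside the limits with smaller p were passed over. In each list the genes called in the difference were named, or else the one with the smallest p. Other genes, and all results on groups that stand apart, positions and promoters, were chosen after their values were seen. The comparison and the gene lists were chosen with earlier results of these data known. A few genes are not reported here.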

Additional observations from a re-analysis of the deposited data

Results flagged for a closer look

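For Mndal (6.41), Dab1 (6.51) and Gm4956 (−6.84) the log2 effect of Rab30 loss differed between the liver and the whole-body deletion in edgeR's adjusted test of the difference itself. In each the ff;ff livers stood apart from the 12 others.

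A library lay far from the other 3 of its group, by Dixon's 95% limit, in 19 of 188 groups of 4 values (10.1%). The limit marks about 1 in 20 groups of independent normal values. CPM of genes chosen largely by p are not such values, so the higher share cannot be read as a sign of faulty libraries. In Rab30L-/- these were Mndal at 7.44 CPM, Cela1 at 5.3 CPM and Rab36 at 9.1 CPM in replicate 2, Obp2a at 1.17 CPM, Cyp4a12b at 70.4 CPM, Serpinf2 at 777 CPM and Cyp3a16 at 0.0729 CPM in replicate 1, and Bmp2 at 11.9 CPM in replicate 3. In ff;ff they were Mndal at 0.135 CPM and Slc25a51 at 323 CPM in replicate 3, Hbb-bs at 224 CPM in replicate 4 and Gdf15 at 0.675 CPM in replicate 1. In Rab30KO they were Cpt2 at 82.7 CPM and Obp2a at 11.6 CPM in replicate 1, Tcp11l1 at 6.25 CPM in replicate 2, and Slc25a51 at 152 CPM and S100a9 at 3.23 CPM in replicate 3. In Rab30 Ctrl they were AA986860 at 12.4 CPM in replicate 2 and Ifi47 at 29.5 CPM in replicate 3. Without Rab30KO 1 the log2 difference of Obp2a was −4.01 in place of −6.99.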

How the results depend on the processing

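The 3 genes called in the difference stayed 3 with other scaling, without robust estimation and without the fold limit. They became 18 without the low-count filter, 59 with DESeq2, 6 with limma-voom, 12 with all 24 libraries, where 2 of the 3 were kept and Mndal was lost (log2 6.44, adjusted p = 0.104), and 1098 without adjustment. With at least 10 counts in every library edgeR called 0, since all 3 genes fail that filter. The 32 genes of the liver effect became 50, 227, 319, 94 and 1499 in the same order, 16 under the stricter filter and 64 in its 8 libraries alone. The 5 genes of the whole-body effect became 11 without the filter, 15 with DESeq2, 9 with all 24 libraries, 446 without adjustment and 3 in its 8 libraries alone. The 5 genes of the mean effect became 10 without the filter, 55 with DESeq2, 12 with limma-voom, 10 with all 24 libraries and 898 without adjustment. Leaving out each library gave 3 to 11 genes for the difference, 12 to 46 for the liver, 0 to 6 for the whole body, 3 to 8 for the mean and a correlation of −0.076 to 0.091. The correlation was −0.024 to 0.083 under the other alternatives, where −0.024 is Spearman's rho over all genes and 0.083 is Pearson's r. The rho of −0.102 among genes with a mean of at least 100 counts is not part of that range. No called difference among the 48 named genes changed sign, and the differences of Atp1b1, Efna1, Obp2a, Slc25a51, Cyp4a12b, Cyp3a11, Abcc4, Tsc22d3 and Dbp passed with DESeq2. Those of Atp1b1 and Efna1 also passed without the low-count filter, and that of Cyp3a11 with all 24 libraries. The cause of these shifts was not tested. Mndal, Dab1 and Gm4956 rest on low counts in 1 or more groups, and differences of 4 groups of 4 livers have a median SE of 0.34. No paired analysis was possible because the labels give no replicate numbers shared between groups.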

Other observations

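The member with the smallest p of the difference in the following lists did not pass edgeR's adjusted test. For stellate cells it was Pdgfrb, a growth factor receptor, at 0.67 (SE 0.45), and for T and NK cells the co-receptor Cd4 at −1.11 (SE 0.74). For macrophages it was the scavenger receptor Marco at 2.36 (SE 1.84), for red blood cells the beta globin gene Hbb-bs at 1.15 (SE 0.75), and for pancreas acinar cells the elastase Cela1 at 0.16 (SE 0.30). Leaving out 1 library gave 1.38 to 4.24 for Marco (without Rab30 Ctrl 2 and Rab30KO 3), −1.58 to −0.39 for Cd4 (without Rab30 Ctrl 4 and Rab30KO 3), 0.33 to 0.86 for Pdgfrb (without Rab30 Ctrl 4 and ff;ff 2) and 0.05 to 0.31 for Cela1 (without ff;ff 3 and ff;ff 1). Among female-biased growth hormone targets Cyp3a16 held 56 counts in ff;ff and 1 in Rab30L-/-, a ratio of 60.5 (95% counting interval 10.4 to 2430).

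Levels differed widely within a group, with a log2 span over 3 among 4 libraries of at least 1 group, at 634 of the 14304 genes tested (4.43%). This held for 84 of the 1098 genes past the unadjusted test of the difference (7.65%), for 0 of the 3 called and for 4 of the 32 called in the liver effect (12.5%). In the whole-body pair Klk1b4, Mrgprb11-ps and Gm45086 were at 0 in all 4 Rab30KO libraries, the last 2 at least 10.2-fold and at least 9.64-fold lower than Rab30 Ctrl against a floor of 3 counts over the group.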
